A study of Mus musculus with 25 samples.

Results

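NF-kappaB is a family of dimeric transcription factors that waits in the cytoplasm of a resting T cell, held there by IkappaB proteins. Signals from the T cell receptor with its costimulators, and from receptors of the tumour necrosis factor and interleukin-1 families, activate IkappaB kinase, which marks the inhibitor for destruction and frees the dimers to enter the nucleus. Several of the genes they switch on encode their own inhibitors, so the pathway shuts itself off. Described here are 10 genes of this circuit, taken as a list by symbol: the 5 subunit genes Nfkb1, Nfkb2, Rel, Rela and Relb, and 5 genes for inhibitors and regulators, Nfkbia, Nfkbid, Nfkbiz, Tnfaip3 and Bcl3. They are 10 of the 46078 genes counted, and all 10 passed the filter on low counts that left 14703 genes for testing. The last 5 listed are called inhibitor genes below for short. Of these, Nfkbid, Nfkbiz and Bcl3 encode nuclear IkappaB proteins whose roles, given below, go beyond inhibition.

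The CD4 T cells were sorted from mice of the strain C57BL/6NTac that were wild-type, knock-out or knock-in for miR-150, a microRNA made in quantity by resting lymphocytes. The mice were either naive or had been immunized 7 days earlier to induce EAE, experimental autoimmune encephalomyelitis, which serves as a mouse model of multiple sclerosis. The data comprise 5 wild-type day 7 libraries and 4 in each of the wild-type naive, knock-out naive, knock-out day 7, knock-in naive and knock-in day 7 groups, 25 in all. How the knock-out and knock-in alleles were built, the ages of the mice and the tissue of origin are not given in the sources used here, and no label ties a library to a mouse. The p-values therefore cover only how these samples varied, and that variation may be technical.

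Total counts ran from 6024043 to 49489134 per library, and the 10 genes received from 128 counts (Bcl3) to 12181 counts (Nfkb1) in a library. Depth differed by group. Wild-type naive libraries had 6024043 to 9351180 counts and wild-type day 7 libraries 6434118 to 30383082. Knock-out naive libraries had 13917799 to 43640843 counts and knock-in naive libraries 6454287 to 45739082. The part of depth in the results below was not tested. Mir150 itself had 0 counts in all 8 knock-out libraries and 9.01 to 28.2 CPM (counts scaled to a common library size) in each of the other 17. Its mean was 21.1 ± 5.17 CPM (SD, n = 4) in wild-type naive and 14.6 ± 1.41 CPM (SD, n = 4) in knock-in naive libraries. At day 7 it was 15.8 ± 5.28 CPM (SD, n = 5) in wild-type and 15.4 ± 8.81 CPM (SD, n = 4) in knock-in libraries. The knock-in mean was thus not above the wild-type mean at either stage. These are reads assigned to the Mir150 gene in total RNA libraries, and the mature microRNA was not measured. The CD4 T cell label held: Cd4 stood at 434 to 555 CPM and Cd3e at 284 to 332 CPM, against 0.0404 to 3.78 CPM for the B cell marker Cd79a, 0 to 1.101 CPM for the myeloid marker Csf1r and 0.160 to 6.90 CPM for Cd8a. Some measures moved with stage. The summed level of 10 markers of CD8 T and NK cells was 31.3 to 66.5 CPM in naive and 19.1 to 35.3 CPM in day 7 libraries, and genes annotated as ribosomal RNA took 14.98% to 18.1% of counts in naive and 16.4% to 20.9% in day 7 libraries. The summed level of 25 early response and stress genes, which cells switch on within minutes of stimulation or handling, was 882 to 1617 CPM in naive and 1308 to 2773 CPM in day 7 libraries. The part of these shifts in the results below was not tested. The third knock-out day 7 library (replicate 3) differed most from the rest: it had the most counts and received the lowest weight, 0.144, in a fit that weights libraries by their agreement with the model. In bulk RNA, a change in the share of cells that express a gene and a change in the RNA per cell cannot be told apart.

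The promoters of Nfkbia, Tnfaip3 and Bcl3, the inhibitor genes called at day 7 that have a promoter in the table used, are shown first, because binding of NF-kappaB to sites at such promoters is how the feedback is known to work. The sequences are RefSeq's, on build GRCm38.p6, and run from 250 bases before to 50 bases after an annotated start site, 5′ to 3′ on the gene's strand. Capitals mark matches to the 10-base kappaB consensus on either strand. Positions are given from the start site, whose own base is 0. The windows are chr12:55492598-55492897 (minus strand) for Nfkbia, chr10:19015361-19015660 (minus strand) for the first of 2 Tnfaip3 starts and chr7:19822706-19823005 (minus strand) for Bcl3.

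Nfkbia promoter: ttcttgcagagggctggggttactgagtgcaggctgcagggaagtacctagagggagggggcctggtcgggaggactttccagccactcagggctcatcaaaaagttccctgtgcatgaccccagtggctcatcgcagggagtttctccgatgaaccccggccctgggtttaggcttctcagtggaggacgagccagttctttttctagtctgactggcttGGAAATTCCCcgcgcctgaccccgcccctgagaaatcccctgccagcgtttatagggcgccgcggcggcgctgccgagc
Tnfaip3 promoter, first start: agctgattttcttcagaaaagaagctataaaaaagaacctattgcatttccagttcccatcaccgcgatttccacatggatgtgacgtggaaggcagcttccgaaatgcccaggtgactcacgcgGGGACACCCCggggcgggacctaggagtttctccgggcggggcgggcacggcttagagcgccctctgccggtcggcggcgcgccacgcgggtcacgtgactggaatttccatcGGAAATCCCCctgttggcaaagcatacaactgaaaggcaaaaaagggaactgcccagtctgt
Bcl3 promoter: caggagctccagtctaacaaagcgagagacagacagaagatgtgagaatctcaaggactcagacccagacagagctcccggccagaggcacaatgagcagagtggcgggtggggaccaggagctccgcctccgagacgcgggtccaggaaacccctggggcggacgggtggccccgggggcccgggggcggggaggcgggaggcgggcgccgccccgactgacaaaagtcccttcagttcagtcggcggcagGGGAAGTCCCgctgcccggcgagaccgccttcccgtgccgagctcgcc

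Nfkbia held 1 match, read on the other strand, at -29 to -20 from the start site. Tnfaip3 held 2, at -125 to -116 (readable on both strands) and at -12 to -3 (other strand). Bcl3 held 1, just inside the transcribed region at 2 to 11, readable on both strands. In the table used, 7 of the 10 genes had a promoter, with 12 start sites among them; Nfkb1, Relb and Nfkbiz are not shown.

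Day 7 against naive, which asks how the circuit stood after immunization, was compared first within each genotype and then as the mean change over the 3 genotypes. A gene is called here when its Benjamini-Hochberg adjusted p, over all 14703 genes in edgeR's quasi-likelihood test, was under 0.05. The members called at day 7 were inhibitor genes, all of them higher; Nfkbid and the 5 subunit genes were not called in any of these comparisons. In wild-type cells 3 of the 10 genes rose, Nfkbiz, Tnfaip3 and Nfkbia, where 1.18% of all genes tested were called higher. In knock-out cells Nfkbiz rose, 1 of 10 against 0.211% of all genes. In knock-in cells Nfkbiz, Tnfaip3 and Bcl3 rose, 3 of 10 against 1.01%. Over the mean of the 3 genotypes, which rests on all 25 libraries, 4 of 10 rose, Nfkbiz, Tnfaip3, Bcl3 and Nfkbia, against 6.16% of all genes. No member was called lower. The members were chosen with earlier results of these data known. Member counts set beside shares of all genes, here and below, are therefore descriptive and no test. The 3 genotypes differ in depth and in how many genes they call, so these counts are no test of a difference between genotypes, which is given further on. Of the 5 inhibitor genes the median log2 change over the mean of the 3 genotypes was 0.49, of the 5 subunit genes 0.09, and of all genes tested -0.00358.

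Nfkbiz (ENSMUSG00000035356, chr16:55811375-55838899, minus strand in mm10) encodes IkappaB-zeta, a nuclear IkappaB that helps NF-kappaB switch on secondary response genes and takes part in the development of Th17 cells. Its level was 82.6, 90.0, 82.1 and 87.5 CPM in the wild-type naive libraries and 123, 134, 138, 130.4 and 121 CPM in the wild-type day 7 libraries. In knock-out libraries it was 94.1, 93.4, 94.6 and 83.6 CPM in naive and 113, 111, 139 and 125 CPM in day 7 cells. In knock-in libraries it was 93.9, 93.2, 86.4 and 78.5 CPM in naive and 143, 119.5, 128 and 115 CPM in day 7 cells. Every one of the 13 day 7 libraries lay above every one of the 12 naive libraries, the only member for which this was so; 27 genes, 0.184% of those tested, showed the same. The log2 change was 0.59 (SE 0.08, 1.51-fold, edgeR adjusted p = 1.6e-05) in wild-type, 0.42 (SE 0.08, 1.34-fold, adjusted p = 0.00794) in knock-out and 0.52 (SE 0.08, 1.43-fold, adjusted p = 0.000281) in knock-in cells. Over their mean it was 0.51 (SE 0.04, adjusted p = 6.71e-09). Nfkbiz was called higher in each of the 3 genotypes, as were 18 genes in all, 0.122% of those tested. The knock-out call was lost when only the 2 groups compared were fitted (adjusted p = 0.0694), and without replicate 3 of the knock-out day 7 group the change was 0.35 (adjusted p = 0.0464).

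Tnfaip3 (ENSMUSG00000019850, chr10:19000910-19015657, minus strand) encodes a ubiquitin-editing enzyme that takes apart the signalling complexes upstream of IkappaB kinase. It stood at 56.4, 63.5, 57.8 and 54.9 CPM in wild-type naive and at 90.8, 103, 90.9, 84.4 and 104 CPM in wild-type day 7 libraries. It stood at 64.5, 55.4, 57.8 and 59.1 CPM in knock-out naive and at 68.5, 75.1, 65.6 and 85.7 CPM in knock-out day 7 libraries. Knock-in naive libraries had 56.2, 54.9, 62.9 and 58.3 CPM, and knock-in day 7 libraries 102, 67.3, 84.8 and 63.6 CPM. The naive libraries of all genotypes lay close together, and day 7 libraries lay above naive ones within each genotype, by a wide gap in wild-type and a narrow one in knock-out and knock-in cells. Nfkbiz and Tnfaip3 were the members whose libraries did not overlap in any of the 3 genotypes, as for 53 genes, 0.36% of those tested. The log2 change was 0.70 (SE 0.11, 1.62-fold, edgeR adjusted p = 0.000257) in wild-type and 0.46 (SE 0.11, 1.37-fold, adjusted p = 0.0250) in knock-in cells. In knock-out cells it was 0.31 (SE 0.11, adjusted p = 0.200), with a 95% interval from 0.09 to 0.54, and it was not called. Over the mean of the 3 genotypes it was 0.49 (SE 0.06, adjusted p = 4.5e-06). In knock-in cells the change lay between 0.31 and 0.55 whichever library was left out. The call was lost without knock-in naive replicate 1 (adjusted p = 0.0864), 2 (0.0794) or 4 (0.0631), and without knock-in day 7 replicate 1 (0.189) or 3 (0.0529).

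Nfkbia (ENSMUSG00000021025, chr12:55489410-55492647, minus strand) encodes IkappaB-alpha, the inhibitor that is destroyed on activation and made anew by NF-kappaB. Wild-type naive libraries held 51.6, 51.2, 54.3 and 50.8 CPM and wild-type day 7 libraries 83.4, 63.2, 86.2, 65.3 and 73.2 CPM. Knock-out naive libraries held 69.1, 49.8, 59.1 and 69.5 CPM and knock-out day 7 libraries 75.3, 68.2, 84.4 and 60.1 CPM. Knock-in naive libraries held 56.1, 53.6, 63.2 and 60.0 CPM and knock-in day 7 libraries 82.4, 65.8, 67.8 and 69.6 CPM. The groups were apart in wild-type and in knock-in cells and overlapped in knock-out cells, where naive replicates 1 and 4 were higher than day 7 replicates 2 and 4. In wild-type cells the log2 change was 0.52 (SE 0.11, 1.43-fold, edgeR adjusted p = 0.00798). It was 0.22 (95% interval -0.01 to 0.44, adjusted p = 0.411) in knock-out and 0.29 (0.07 to 0.52, adjusted p = 0.180) in knock-in cells, neither of them called, and 0.34 (SE 0.06, adjusted p = 0.000591) over the mean of the 3 genotypes.

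Bcl3 (ENSMUSG00000053175, chr7:19808462-19822770, minus strand) encodes a nuclear IkappaB that binds homodimers of the Nfkb1 and Nfkb2 products and can activate or repress transcription with them. It was the member with the largest coefficient of variation over the 25 libraries, 38.2%. Wild-type naive libraries had 20.1, 17.5, 16.5 and 18.9 CPM, and wild-type day 7 libraries 46.2, 25.7, 36.5, 17.2 and 26.6 CPM. Knock-out libraries had 19.5, 20.5, 22.6 and 14.2 CPM in naive and 31.6, 27.6, 26.7 and 25.03 CPM in day 7 cells. Knock-in libraries had 15.2, 20.05, 18.7 and 20.8 CPM in naive and 41.4, 26.2, 26.2 and 52.0 CPM in day 7 cells. All day 7 libraries but 1, wild-type replicate 4 at 17.2 CPM, lay above all 12 naive ones. The log2 change was 0.98 (SE 0.22, 1.97-fold, edgeR adjusted p = 0.0167) in knock-in cells. It was 0.75 (SE 0.22, adjusted p = 0.0723) in wild-type and 0.54 (SE 0.22, adjusted p = 0.280) in knock-out cells, where it was not called. Without wild-type day 7 replicate 4 the wild-type change was 0.91 (adjusted p = 0.0112). With no filter on low counts the change was 0.75 in wild-type and 0.53 in knock-out cells, nearly as before. Both were then called (edgeR adjusted p = 2.8e-07 and 0.00193). The knock-in change was 0.88 (adjusted p = 0.0845) or 0.98 (0.0561) when naive replicate 1 or 3 of that genotype was left out. It was 0.90 (0.0735) or 0.76 (0.0671) when its day 7 replicate 1 or 4 was left out, and in these 4 fits it was not called. Over the mean of the 3 genotypes the change was 0.75 (SE 0.13, 1.69-fold, adjusted p = 0.000224). The summed level of 13 activated T cell markers was 361, 480, 439, 254 and 398 CPM in the wild-type day 7 libraries, in the order of replicates above. It was 350.1, 710.4, 316 and 366 CPM in knock-out and 602, 281, 320 and 463 CPM in knock-in day 7 libraries. The wild-type library with the least Bcl3 also had the lowest marker level, and the knock-out library with the highest marker level did not have the most Bcl3; the part of these markers in the Bcl3 values was not tested.

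Nfkbid (ENSMUSG00000036931, chr7:30421732-30428746, plus strand) encodes IkappaB-NS, a nuclear IkappaB needed for full lymphocyte activation. It had 32.5, 39.7, 33.5 and 30.2 CPM in wild-type naive and 39.7, 39.5, 46.3, 42.8 and 43.8 CPM in wild-type day 7 libraries. The ranges met at their edges, since naive replicate 2 was as high as day 7 replicates 1 and 2. The log2 change was 0.32 (95% interval 0.13 to 0.52, edgeR adjusted p = 0.0723), and it was not called. DESeq2 (adjusted p = 0.0415), limma voom (0.0341) and the fit without wild-type naive replicate 2 (0.0333) did call it. In knock-out cells the change was -0.01 (-0.21 to 0.18) and in knock-in cells 0.07 (-0.13 to 0.27).

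Libraries of day 7 and naive cells did not overlap for 3 of 10 members in wild-type cells (Nfkbia, Nfkbiz and Tnfaip3), where 2.94% of all genes were higher without overlap. The same held for 3 of 10 in knock-out cells (Nfkbiz, Tnfaip3 and Bcl3) against 2.43% of all genes, and for 4 of 10 in knock-in cells (Nfkbia, Nfkbiz, Tnfaip3 and Bcl3) against 4.7%.

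**Figure D1:**
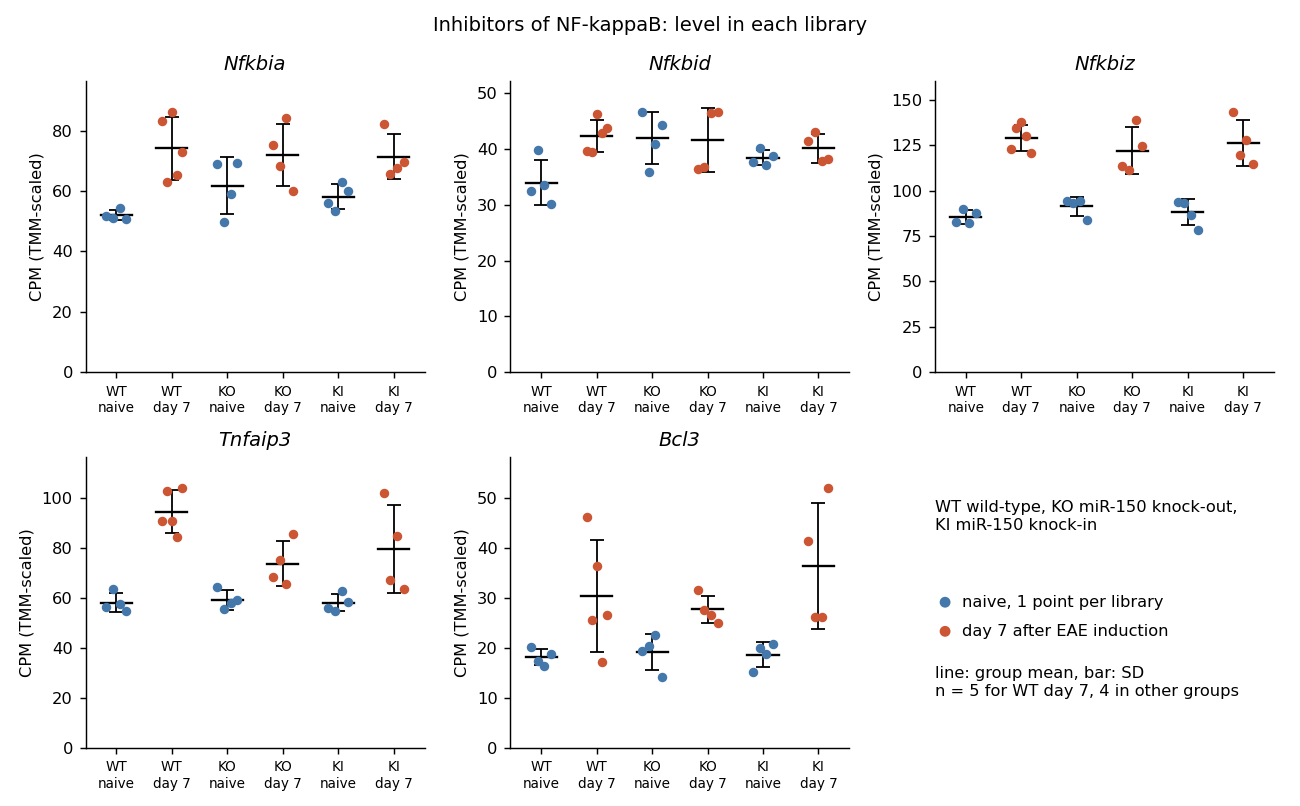
Level of the 5 inhibitor genes in each library, in TMM-scaled CPM on axes from 0, by group, with 1 point per library, the group mean as a line and the SD as a bar (n = 5 for wild-type day 7, 4 in each other group). Nfkbiz separates the 13 day 7 from the 12 naive libraries, Tnfaip3 is highest in wild-type day 7 cells, and Bcl3 spreads widely at day 7, from 17.2 to 52.0 CPM.

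No subunit gene was called at day 7 by edgeR, although 2 in wild-type, 0 in knock-out and 1 in knock-in cells, and 2 over the mean of the 3 genotypes, had an unadjusted p under 0.05. Of all genes tested, 15.1%, 12.8%, 15.1% and 24.4% had one in these 4 comparisons. Rela encodes the main activating subunit and Rel its close relative in lymphocytes. Nfkb1 and Nfkb2 encode precursors that are processed into DNA-binding subunits, and Relb pairs with the Nfkb2 product in the noncanonical pathway. Nfkb1 (ENSMUSG00000028163, chr3:135584655-135691547, minus strand) was the steadiest member: it ran from 227 to 274 CPM over all 25 libraries, a coefficient of variation of 3.99%, against 38.2% for Bcl3. Its log2 change at day 7 was 0.05 in wild-type, 0.04 in knock-out and -0.07 in knock-in cells, with 95% intervals that reached no further than -0.16 and 0.14. Rel (ENSMUSG00000020275, chr11:23736847-23770970, minus strand) ran from 72.0 to 84.9 CPM in naive and from 66.0 to 88.7 CPM in day 7 libraries. Its changes were -0.05, 0.05 and -0.12 in wild-type, knock-out and knock-in cells. Rela (ENSMUSG00000024927, chr19:5637483-5648130, plus strand) ran from 68.3 to 92.0 CPM in naive and from 70.3 to 97.5 CPM in day 7 libraries, with changes of 0.12, 0.00202 and 0.14. For both genes the naive range lay mostly within the day 7 range.

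Relb and Nfkb2 were the subunit genes with the smallest adjusted p over the mean of the 3 genotypes, and neither was called. Relb (ENSMUSG00000002983, chr7:19606217-19629438, minus strand) had 28.4, 26.2, 22.0 and 26.8 CPM in wild-type naive and 30.9, 32.3, 37.5, 23.2 and 35.3 CPM in wild-type day 7 libraries. In knock-in cells it had 26.0, 30.4, 27.6 and 31.9 CPM in naive and 36.2, 33.6, 36.0 and 31.5 CPM in day 7 libraries. In each of these genotypes 1 day 7 library fell within the naive range. The log2 change of Relb was 0.30 (95% interval 0.05 to 0.56, edgeR adjusted p = 0.237) in wild-type, 0.06 (-0.19 to 0.32, adjusted p = 0.881) in knock-out and 0.25 (-0.01 to 0.51, adjusted p = 0.343) in knock-in cells. Over the mean of the 3 genotypes it was 0.21 (0.06 to 0.36, adjusted p = 0.0650). That value lay close to the threshold: it was called by DESeq2 (adjusted p = 0.0445), with no filter (0.0411) and with a stricter filter (0.0452). Leaving out wild-type day 7 replicate 4 (0.0119), knock-out naive replicate 1 (0.0236) or knock-out day 7 replicate 4 (0.0298) also made it a call, and the first of these made Relb a call in wild-type cells as well (0.0463). Nfkb2 (ENSMUSG00000025225, chr19:46304320-46312385, plus strand) ran from 42.8 to 56.8 CPM in naive and from 45.8 to 74.3 CPM in day 7 libraries, with a change of 0.16 (0.04 to 0.28, adjusted p = 0.0870) over the mean of the 3 genotypes. Its change was 0.22 (0.01 to 0.43, adjusted p = 0.302) in wild-type, -0.01 (-0.22 to 0.21, adjusted p = 0.986) in knock-out and 0.27 (0.05 to 0.48, adjusted p = 0.209) in knock-in cells. The mean change was called without wild-type day 7 replicate 4 (0.0341), knock-in day 7 replicate 3 (0.0390) or knock-in day 7 replicate 4 (0.0489).

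**Figure D2:**
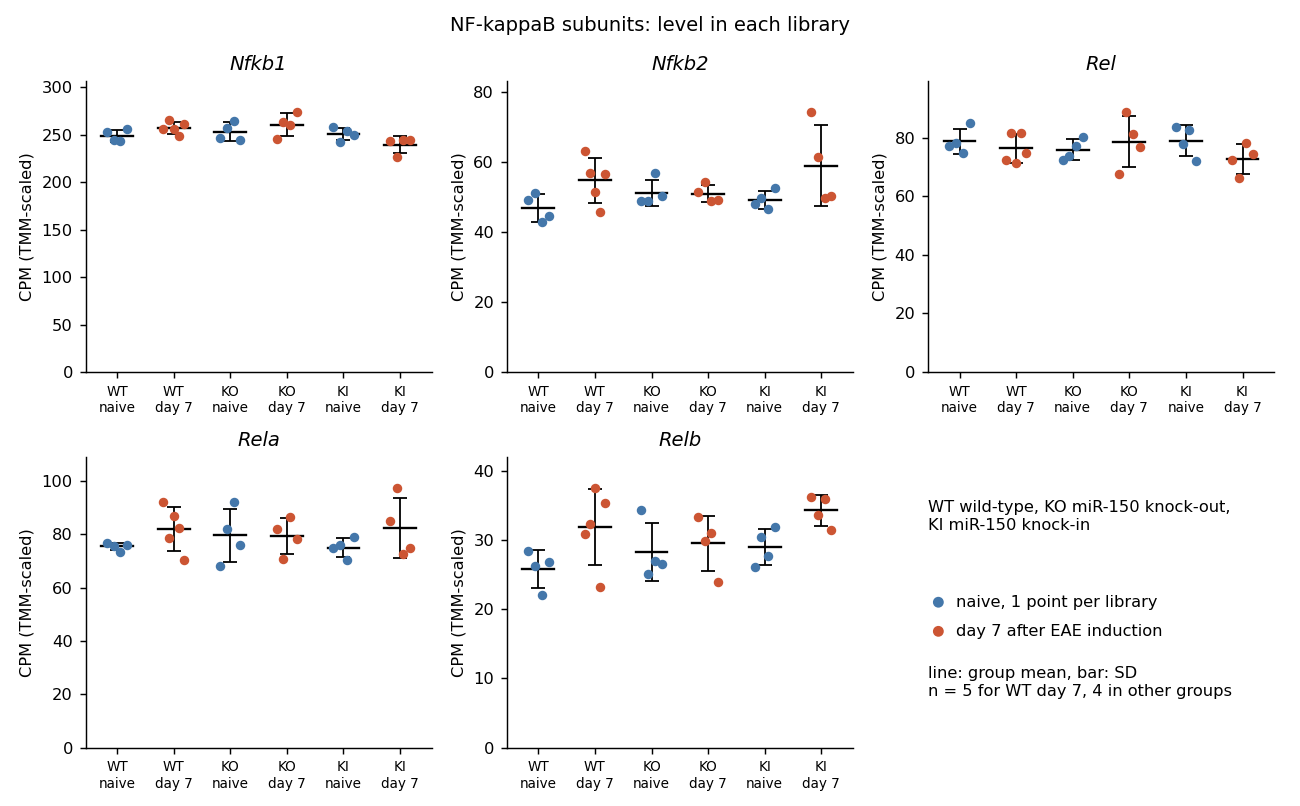
Level of the 5 subunit genes in each library, in TMM-scaled CPM on axes from 0, by group, with 1 point per library, the group mean as a line and the SD as a bar (n = 5 for wild-type day 7, 4 in each other group). Nfkb1 stays between 227 and 274 CPM in every group, and the naive and day 7 points of each gene overlap.

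**Figure D3:**
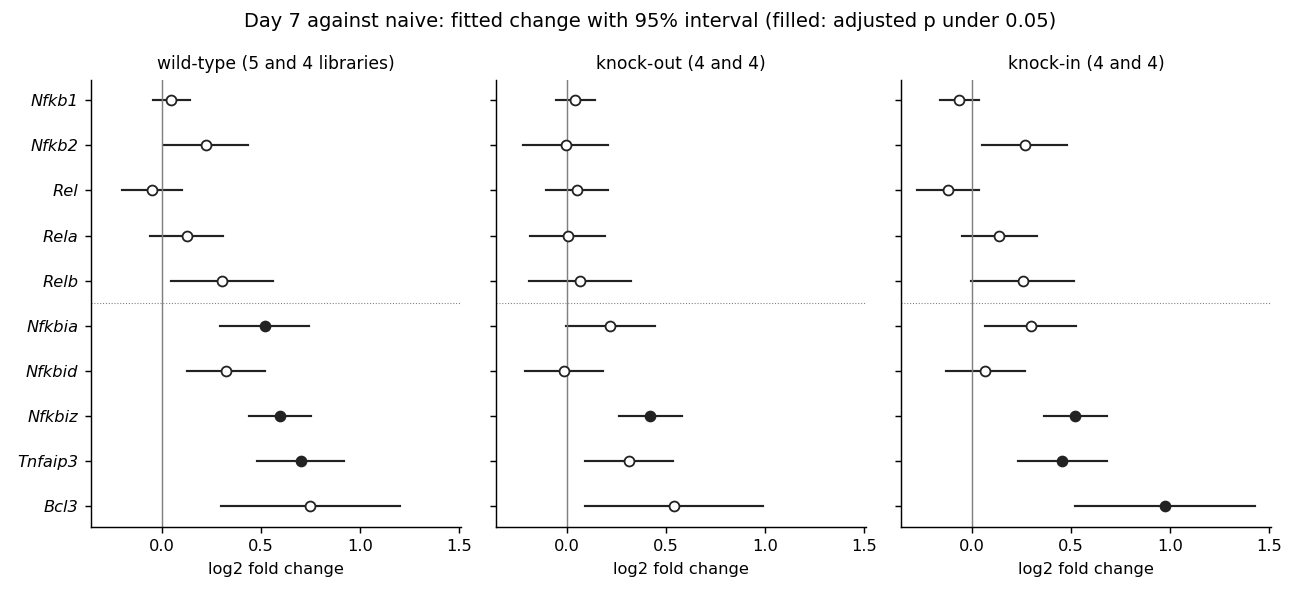
Fitted log2 fold change of day 7 against naive for the 10 members in each genotype, with 95% intervals as lines, filled points for an adjusted p under 0.05, and subunits above the dotted line. The filled points are all inhibitor genes: 3 in wild-type, 1 in knock-out and 3 in knock-in cells.

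The comparison of genotypes, which asks whether loss or knock-in of miR-150 shifts the circuit, gave no call among the 10 members in any of the 8 tests by edgeR. Of all genes tested, 0.0204% were called for knock-out against wild-type in naive cells and 0.0476% at day 7, and 0.0136% and 0.0% for knock-in against wild-type. For knock-out against knock-in the shares were 0.163% in naive cells and 0.374% at day 7. A count of 0 of 10 is near these background shares. At an unadjusted p under 0.05 the members numbered 2 and 1 for knock-out against wild-type (naive and day 7), 0 and 2 for knock-in against wild-type, 0 and 1 for knock-out against knock-in, and 2 and 0 for the tests of a differing day 7 change. In the same order the shares of all genes tested were 7.55% and 9.45%, 2.26% and 4.65%, 9.0% and 11.2%, and 7.79% and 3.8%. DESeq2 and limma voom called no member in these tests either. The intervals give the sizes that the data leave possible. Relb, Bcl3 and Nfkbid lie on chromosome 7, as does Mir150, and the part of that linkage in their genotype differences was not tested. In naive cells the member furthest from 0 was Nfkbid, at 0.31 higher in knock-out than in wild-type cells on the log2 scale (95% interval 0.10 to 0.51, unadjusted p = 0.00456, adjusted p = 0.456). The 4 knock-out naive libraries had 46.6, 35.9, 40.9 and 44.3 CPM of Nfkbid, against 32.5, 39.7, 33.5 and 30.2 CPM in wild-type, and replicate 2 of each group lay within the other's range. Nfkbia followed at 0.26 (0.02 to 0.49, adjusted p = 0.625). The median estimate of the 5 inhibitor genes for knock-out against wild-type was 0.09 in naive cells and -0.08 at day 7. For knock-in against wild-type, which shares the wild-type libraries, it was 0.04 and -0.06. Over all 10 members the estimates for knock-out against wild-type ran from -0.05 for Rel to 0.31 for Nfkbid in naive cells, and from -0.36 for Tnfaip3 to 0.04 for Rel at day 7. For knock-in against wild-type they ran from -0.01 for Rela to 0.18 for Nfkbid in naive cells, and from -0.24 for Tnfaip3 to 0.25 for Bcl3 at day 7. For knock-out against knock-in they ran from -0.06 for Rel to 0.13 for Nfkbid in naive cells (lowest adjusted p = 0.761), and from -0.39 for Bcl3 to 0.12 for Nfkb1 at day 7 (lowest adjusted p = 0.330).

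At day 7 the member furthest from 0 between knock-out and wild-type was Tnfaip3. It was 94.6 ± 8.47 CPM (SD, n = 5) in wild-type and 73.7 ± 8.92 CPM (SD, n = 4) in knock-out libraries, with knock-out replicate 4 (85.7 CPM) above wild-type replicate 4 (84.4 CPM). The log2 difference was -0.36 (95% interval -0.57 to -0.15, unadjusted p = 0.00175, edgeR adjusted p = 0.198), so it was not called, though the fit with no filter on low counts called it (adjusted p = 0.00412). The estimate in that fit was the same, -0.36. That fit lowered adjusted p elsewhere too, for the wild-type day 7 change of Bcl3 from 0.0723 to 2.8e-07 at an estimate of 0.75. In knock-in day 7 cells Tnfaip3 was 79.4 ± 17.7 CPM (SD, n = 4), and the difference from wild-type was -0.24 (-0.46 to -0.03, adjusted p = 0.999). The summed level of the early response and stress genes was 2058 ± 508 CPM (SD, n = 5) in wild-type, 1645 ± 325 CPM (SD, n = 4) in knock-out and 2003 ± 501 CPM (SD, n = 4) in knock-in day 7 libraries. This sum was scaled by total counts alone, unlike the TMM-scaled Tnfaip3 values, and its part in them was not tested. Bcl3 was 0.39 lower on the log2 scale in knock-out than in knock-in day 7 cells, an estimate of -0.39 with an interval from -0.84 to 0.05 (adjusted p = 0.525).

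Nfkb1 was the member whose libraries separated by genotype, and by a small margin. At day 7 its 4 knock-in libraries (243, 227, 244 and 245 CPM) lay below all 5 wild-type ones (256, 266, 256, 248 and 261 CPM) and all 4 knock-out ones (246, 263, 261 and 274 CPM). The log2 difference was -0.10 against wild-type (95% interval -0.19 to -0.01, edgeR adjusted p = 0.999), and knock-out exceeded knock-in by 0.12 (0.02 to 0.22, adjusted p = 0.330). Neither was called. Of all genes tested, 0.66% were lower without overlap in the first comparison and 2.26% higher without overlap in the second.

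**Figure D4:**
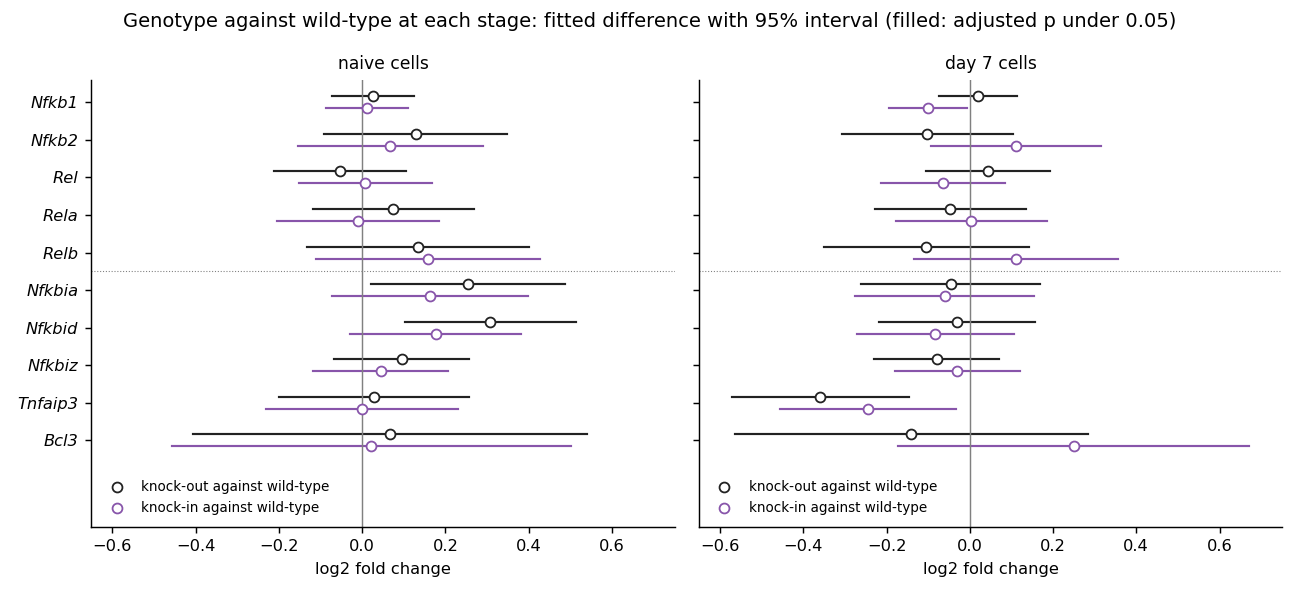
Fitted log2 difference of knock-out and knock-in from wild-type for the 10 members in naive (left) and day 7 cells (right), with 95% intervals as lines and filled points for an adjusted p under 0.05. No point is filled; Tnfaip3 at day 7 lies furthest below 0, at -0.36 in knock-out cells.

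Whether the day 7 change itself differed between genotypes was tested with an interaction term. No gene of the 14703 was called, 0.0% for knock-out minus wild-type and 0.0% for knock-in minus wild-type in edgeR, with 1145 and 558 genes at an unadjusted p under 0.05. DESeq2 called 1 gene in each and limma voom 0 and 2, none of them a member. The median difference over the 5 inhibitor genes was -0.30 for knock-out minus wild-type and -0.22 for knock-in minus wild-type. Over the 24 early response and stress genes it was -0.52 and -0.34, with 20 and 23 of them negative, and the part of those genes in the inhibitor values was not tested. For knock-out minus wild-type the difference was -0.39 for Tnfaip3 (95% interval -0.70 to -0.08, adjusted p = 0.552), -0.34 for Nfkbid (-0.62 to -0.06, adjusted p = 0.552) and -0.30 for Nfkbia (-0.62 to 0.02, adjusted p = 0.640). It was -0.17 for Nfkbiz (-0.39 to 0.05) and -0.21 for Bcl3 (-0.84 to 0.43). For knock-in minus wild-type the differences ran from -0.26 for Nfkbid (-0.54 to 0.02) to 0.23 for Bcl3 (-0.41 to 0.87), each with an adjusted p of 0.999. These comparisons share the wild-type libraries, so their values are not independent of each other. Because the interaction test called no member, calls such as Nfkbia in wild-type but not in knock-out cells are not shown to differ between genotypes.

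Levels of different genes were compared per length, as CPM per kilobase of exon (RPKM), where exon length joins all annotated isoforms. That length was 12061 bases for Nfkb1 and 1610 for Nfkbia, and it can exceed the length of the transcripts present. Before division by length, Nfkb1 stood above Nfkbia, at 249 against 52.0 CPM in wild-type naive libraries. The order of genes below therefore holds only for these joined lengths. In wild-type naive cells Nfkbia had the highest value at 32.3 ± 0.995 RPKM (SD, n = 4), followed by Rela at 24.6 ± 0.443, Nfkb1 at 20.6 ± 0.512 and Nfkbiz at 17.0 ± 0.765. Then came Nfkbid at 14.5 ± 1.74, Rel at 10.5 ± 0.576, Nfkb2 at 10.2 ± 0.855, Tnfaip3 at 8.04 ± 0.524, Bcl3 at 7.36 ± 0.643 and Relb at 6.65 ± 0.704 RPKM. The libraries of Nfkbiz and Nfkbid, of Rel and Nfkb2, of Tnfaip3 and Bcl3, and of Bcl3 and Relb overlapped, so these neighbours were not separated. At day 7 in wild-type cells Nfkbia reached 46.1 ± 6.44 RPKM (SD, n = 5). Nfkbiz, at 25.8 ± 1.43 RPKM, ranked above Nfkb1 (21.3 ± 0.547) and overlapped Rela (26.7 ± 2.72). Nfkbiz also ranked above Nfkb1 at day 7 in knock-out cells, where their libraries overlapped, and in knock-in cells, where they did not. Relb had the lowest mean per length in all 6 groups, but in 5 of them its libraries overlapped those of the gene next above it.

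Of the subunits, Rel and Rela are shown by sequence because one promoter held the kappaB consensus and the other did not, while neither gene was called in any comparison. The windows are chr11:23770920-23771219 (minus strand) for Rel and chr19:5637291-5637590 (plus strand) for Rela, both in GRCm38.p6, with matches in capitals.

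Rel promoter: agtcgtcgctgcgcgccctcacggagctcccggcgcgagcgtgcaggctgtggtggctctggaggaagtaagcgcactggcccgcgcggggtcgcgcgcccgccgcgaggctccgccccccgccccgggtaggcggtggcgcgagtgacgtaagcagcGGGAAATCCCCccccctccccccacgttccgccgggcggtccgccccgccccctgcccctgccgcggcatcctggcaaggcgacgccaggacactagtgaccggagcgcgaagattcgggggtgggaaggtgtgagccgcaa
Rela promoter: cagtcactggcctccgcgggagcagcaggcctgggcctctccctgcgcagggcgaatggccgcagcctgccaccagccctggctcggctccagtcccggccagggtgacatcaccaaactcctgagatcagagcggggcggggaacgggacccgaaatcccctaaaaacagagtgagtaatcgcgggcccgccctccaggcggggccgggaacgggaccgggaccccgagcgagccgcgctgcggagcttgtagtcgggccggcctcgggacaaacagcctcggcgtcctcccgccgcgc

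Rel held 2 overlapping matches at -92 to -83 and -91 to -82, and Rela held none. Nfkb2 had 3 start sites, and each of their windows held a match. The first held overlapping matches at -39 to -30 and -38 to -29 and another at -11 to -2, and the second held matches at -236 to -227 and at 10 to 19. The windows of the last 2 start sites overlap, and the match in the last, at -225 to -216, is the site at 10 to 19 of the second, so it is counted in both promoters. Nfkbid held matches at -226 to -217 and -181 to -172 from the second of its 3 start sites, and none at the others. In all, 6 of the 7 members with a promoter in the table held the consensus in at least 1 of them, against 11.98% of the 9434 tested genes with a promoter there, and 8 of 12 promoters did, against 10.21% of the promoters of tested genes and 8.459% of all 32851 promoters. A match is a run of letters, not a measured binding site, and its absence says only that these letters are not in this window. Matches were found both at inhibitor genes called at day 7 (Nfkbia, Tnfaip3 and Bcl3) and at genes not called (Nfkbid, Rel and Nfkb2).

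**Figure D5:**
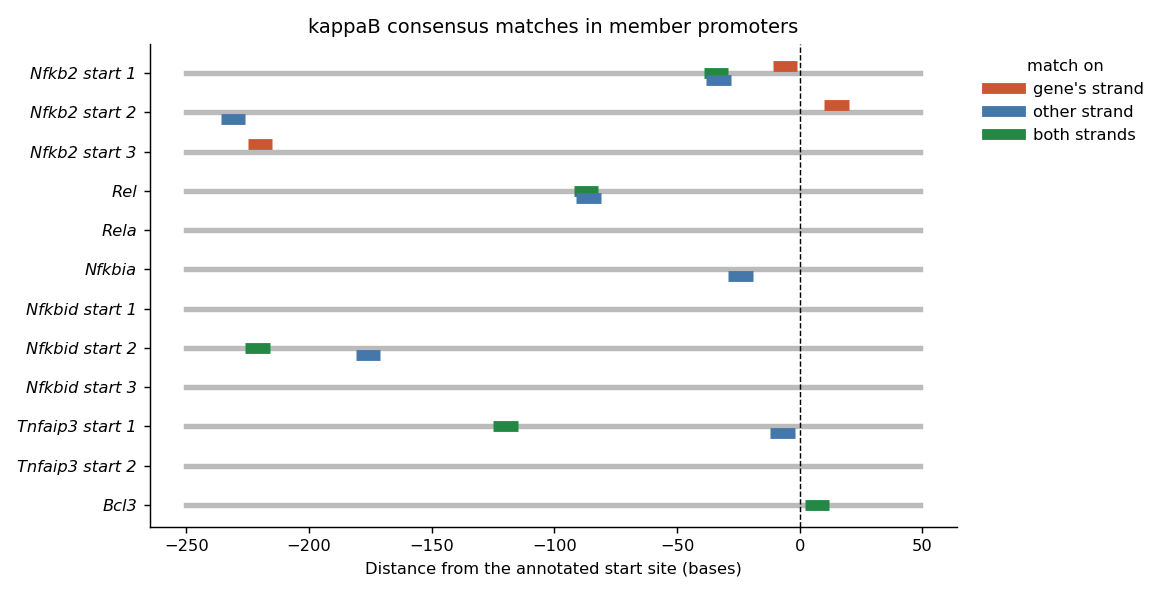
Matches to the kappaB consensus in the 12 promoters of the 7 members found in the RefSeq table, by distance in bases from the annotated start site (dashed line), from 250 before to 50 after, coloured by the strand that matches. Nfkbia, Bcl3, the first start of Tnfaip3 and the first and second starts of Nfkb2 each have a match within 40 bases of the start site. Rela has none.

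Reads from overlapping genes on the opposite strand could add to Nfkb2 and Bcl3, since the strand setting of the counting is not given in the sources used here. Exons of Nfkb2 share 299 bases with Psd on the opposite strand, which had 287 counts in all against 26614 for Nfkb2, and 531 bases with AC114539.1, also on the opposite strand, for which the count table has no row. Exons of Bcl3 share 161 bases with the antisense gene Gm16175, which had 59 counts against 12621. Gm43430 lies within Nfkb1 on the same strand with no shared exon base and had 12160 counts against 130390.

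The rest of the pathway was described by lists. Of 16 tested genes for other inhibitors and deubiquitinases, 1 rose and 1 fell at day 7 over the mean of the 3 genotypes, with a median log2 change of -0.05 (all genes -0.00358, 6.16% called higher). Nfkbie, which encodes IkappaB-epsilon, rose by 0.13 (edgeR adjusted p = 0.0386), and Tank, a TRAF-binding adaptor, fell by 0.17 (adjusted p = 0.0274). Neither was called within a genotype. Of 27 kinases and adaptors between receptor and NF-kappaB, 1 rose and 2 fell, with a median of -0.01. Ikbkb, the catalytic kinase subunit that marks IkappaB, fell by 0.20 (adjusted p = 0.00015) and was 324 ± 15.2 CPM (SD, n = 4) in wild-type naive and 294 ± 21.5 CPM (SD, n = 5) in wild-type day 7 libraries. Irak1, a kinase of the interleukin-1 receptor pathway, rose by 0.13 (adjusted p = 0.0226).

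Over the mean of the 3 genotypes 6.16% of all genes tested were called higher and 5.06% lower, with a median change of -0.00358. Of 14 tested receptors that signal to NF-kappaB, 3 rose and none fell over the mean of the 3 genotypes (median 0.12). Il1r1, the signalling receptor for interleukin-1, rose by 3.45 (SE 0.39, edgeR adjusted p = 5.27e-07), from 0.598 ± 0.272 CPM (SD, n = 4) to 6.08 ± 3.74 CPM (SD, n = 5) in wild-type, from 0.965 ± 0.324 to 5.55 ± 3.42 CPM (SD, n = 4 each) in knock-out and from 0.446 ± 0.264 to 8.90 ± 8.34 CPM (SD, n = 4 each) in knock-in cells. It remained a low gene with a wide spread at day 7. The costimulatory receptor Icos rose by 0.54 (adjusted p = 0.00701) and the innate receptor Tlr2, at about 1 CPM in naive cells, by 0.82 (adjusted p = 0.0456). Of 29 tested genes described as NF-kappaB targets in lymphocytes, 4 rose and 1 fell, with a median of 0.16: the adhesion molecule Icam1 rose by 0.41 (adjusted p = 0.00761), the actin regulator Marcksl1 by 0.61 (adjusted p = 0.0128) and the glucose transporter Slc2a3 by 0.20 (adjusted p = 0.0269). Cflar, an inhibitor of caspase-8 activation, fell by 0.17 (adjusted p = 0.000374). Of the early response and stress genes, 14 of 24 tested rose and 2 fell, with a median of 0.55 and changes of 1.51 for Junb, 2.04 for Ppp1r15a, 2.42 for Dusp1 and 2.23 for Jun. Of 13 activated T cell markers, 4 rose (median 0.23), among them Icos, Ctla4 by 0.44 (adjusted p = 0.00854) and Mki67 by 1.27 (adjusted p = 0.00892). Of 9 tested markers of CD8 T and NK cells, 4 fell (median -1.003): Trdc by 0.71 (adjusted p = 2.91e-06), Klrd1 by 1.003 (adjusted p = 0.000338), Klrk1 by 2.11 (adjusted p = 0.00045) and Nkg7 by 1.68 (adjusted p = 0.0132).

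Over the 25 libraries, which share stage and genotype groups, Nfkbiz and Tnfaip3 were the pair of members most alike, with a Pearson r of 0.83 for log2 CPM, which dropped to 0.28 once the group means were removed. Nfkbia and Nfkbiz had an r of 0.72, and 0.07 within groups. Nfkbia and Relb kept more of theirs, 0.64 and 0.50 within groups. Of 8598 protein-coding genes with a mean of at least 5 CPM, those most like Nfkbia were Jak3 (r = 0.84), Ly6e (0.82), Vars (0.81), Map3k5 (0.81) and Pim1 (0.80). Within groups these 5 had r values from 0.60 to 0.72. The genes most like Nfkb1 were Sfmbt1 (0.76), Fam126a (0.73), Secisbp2l (0.69), Prkci (0.68) and Cbx3 (0.67). All these values describe 25 libraries of unequal depth and carry no test.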

How the data were processed

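Sorted CD4 T cell RNA was extracted with the miRNeasy kit and made into SMARTer Stranded Total RNA-Seq Pico libraries, per the labels' protocols. The authors deposited 1 table of raw counts, with Ensembl genes in rows and the 25 libraries in columns. The submitters' processing notes name mm10 and DESeq2; the aligner, counter, strand setting and annotation are not given in the sources used here. Symbols, positions and exon lengths came from GENCODE M21 (45229 of 46078 IDs had a symbol) and promoters from RefSeq.

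Genes were filtered with filterByExpr (minimum count 10, minimum total count 15, 14703 genes kept), scaled by TMM and fitted to the 6 group means of the 25 libraries by edgeR's quasi-likelihood method. In all, 12 comparisons were tested, two-sided, with Benjamini-Hochberg adjustment over all genes at 0.05. Adjusted p-values are edgeR's unless another tool is named. Intervals are 95% intervals of the log2 fold change. CPM of the members and of single genes from the pathway lists are TMM-scaled. CPM of Mir150, of cell type marker genes and of list sums are scaled by total counts alone. The TMM factors ran from 0.914 to 1.08. Replicates are numbered in accession order. No pair of libraries of a group agreed within sampling noise. The procedure was tested on simulated data.

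The members and lists were chosen with earlier results of these data known. All 10 members were tested in every comparison, and the text gives their values or their range; of each other list, up to 4 called genes with the smallest p are named. Some genes that this rule would name are not reported here. The alternatives were another scaling (RLE), other tools (DESeq2 and limma voom weighted by library quality), no filter or a stricter one (4 libraries with 5 CPM or more), a model of the compared groups alone, removal of mitochondrial, rRNA and haemoglobin genes, the library number as covariate or in blocks of 4 in sequence, and each library left out. Versions were Python 3.11.15 with pandas 2.3.3, numpy 2.4.6 and matplotlib 3.10.9, and R 4.3.3 with DESeq2 1.42.0, edgeR 4.0.16 and limma 3.58.1.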

Additional observations from a re-analysis of the deposited data

Results flagged for a closer look

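In 60 sets of 4 or 5 libraries (10 members in 6 groups), the gap of the highest or lowest library to its neighbour was tested against Dixon's 95% limit, and 2 exceeded it, where chance gives about 1 in 20. Nfkb1 in knock-in day 7 replicate 2, at 227 CPM, lay below the other 3 libraries of its group (243 to 245 CPM). Nfkbiz in knock-out naive replicate 4, at 83.6 CPM, lay below the other 3 (93.4 to 94.6 CPM).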

How the results depend on the processing

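The 4 calls over the mean of the 3 genotypes (Nfkbiz, Tnfaip3, Bcl3 and Nfkbia), the 3 calls in wild-type cells and the knock-in call of Nfkbiz kept direction and threshold under all 34 alternatives, 9 settings and 25 libraries left out. No call changed direction. The number of members called at day 7 ran from 3 to 5 in wild-type, 1 to 1 in knock-out, 1 to 3 in knock-in cells and 4 to 6 over the mean of the 3 genotypes when a library was left out. The 5 in wild-type were reached without wild-type day 7 replicate 4, and the 1 in knock-in cells without knock-in naive replicate 1 or day 7 replicate 1. In knock-out cells the count was 3 with no filter, which added Tnfaip3 and Bcl3, and 0 when only the groups compared were fitted. With no filter 1 member, Tnfaip3, was called between knock-out and wild-type cells at day 7. The knock-in call of Tnfaip3 was lost too in the fit of the compared groups alone (adjusted p = 0.0714). The cause of these changes was not tested. No paired analysis was possible because the labels give only library numbers, which no 2 libraries share; with libraries blocked in sets of 4 by number, the counts of members called did not change. The lowest count of a member in a library was 128, for Bcl3.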
